A study of Mus musculus with 2 samples.

Results

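The BCL2 family decides whether a cell opens its mitochondria and dies, and 10 of its genes were followed in the mRNA of mouse embryonic stem cells (mESCs) that lack a working Dicer1 gene. They were taken by symbol from the 43629 Ensembl genes counted in each library, and each symbol matched 1 gene. The pro-survival genes were Bcl2, Bcl2l1 and Mcl1, the effector genes were Bax and Bak1, and the BH3-only genes were Bcl2l11, Bid, Bbc3, Pmaip1 and Bad. The rule used no measured value, though the genes were proposed with earlier results of these data known.

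PolyA RNA was sequenced from 2 Dicer_KO libraries of mESCs with a 129/Ola background, harvested at passage 7 for replicate 1 and passage 4 for replicate 2. The cells descend from E14TG2a, a line set up from blastocysts, and Dicer1 was cut by a pair of CRISPR/Cas9 guides, after which single cells were sorted to found clones. Clones with different deletions were made, and the sample labels do not say which deletion a library carries, so clone, deletion and passage cannot be told apart between the libraries. WT libraries were not analysed here. All values therefore describe Dicer_KO mESCs, no test between conditions was possible, and differences between the libraries have no replicate check.

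Mitochondrial apoptosis is run by protein contacts within this family. BAX and BAK1, the effectors, form pores in the outer mitochondrial membrane and let cytochrome c out, which starts the caspase cascade. Pro-survival proteins hold the effectors in check, and BH3-only proteins, named after the short helix they share with the rest of the family, answer to stress by blocking the pro-survival proteins or by switching the effectors on. Pluripotent cells are known to stand close to this threshold. Several of these genes are also known targets of miRNAs, the small RNAs that DICER cuts from hairpin precursors.

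For that reason, the sequences of 6 mature miRNAs are given here with their matches in the 10 genes. The study probed its blots for miR-295-3p, of the miR-290 cluster that is abundant in mESCs, and for miR-16-5p. The others are miR-17-5p and miR-92a-3p, of a cluster known to restrain Bcl2l11, miR-29b-3p, known to target Mcl1, and miR-34a-5p, which is induced by p53. The sequences are those of RefSeq (GRCm38.p6), written 5′ to 3′, and capitals mark the seed, bases 2 to 8, which pairs with the target.
miR-295-3p, plus strand, chr7:3220815-3220837: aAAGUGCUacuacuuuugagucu
miR-17-5p, plus strand, chr14:115043684-115043706: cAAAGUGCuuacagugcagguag
miR-92a-3p, plus strand, chr14:115044476-115044496, 1 of 2 loci: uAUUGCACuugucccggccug
miR-29b-3p, plus strand, chr1:195037091-195037113, 1 of 2 loci: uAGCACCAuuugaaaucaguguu
miR-16-5p, plus strand, chr3:69009918-69009939, 1 of 2 loci: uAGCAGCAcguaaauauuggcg
miR-34a-5p, plus strand, chr4:150068473-150068494: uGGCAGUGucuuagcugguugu
The seeds of miR-295-3p and miR-17-5p are shifted by 1 base against each other, so that a stretch which pairs with both is counted for each.

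Letters that pair with all 7 seed bases were searched on the sense strand of the annotated 3′ UTR of each gene, taking the coding transcript with the longest 3′ UTR in GENCODE M21 (GRCm38). The letters were AGCACTT for miR-295-3p, GCACTTT for miR-17-5p, GTGCAAT for miR-92a-3p, TGGTGCT for miR-29b-3p, TGCTGCT for miR-16-5p and CACTGCC for miR-34a-5p. At least 1 match lay in 8 of the 10 genes. There were 24 matches in all, with 4 places that pair with both miR-295-3p and miR-17-5p counted for each. The share of all genes with a match of any of these miRNAs is not given here, so the 8 of 10 has no comparison. The median length of the 3′ UTRs searched was 960 nt, and each of the 10 genes except Bax exceeded it. Bcl2l11, which encodes BIM, held the most, with 8 matches in a 3′ UTR of 4218 nt, and Bcl2 held 4 in 5086 nt. Bcl2l1 and Pmaip1 held none. Matches of miR-295-3p lay in 3 of the 10 genes, against 14.7% of the 3′ UTRs of 21037 genes, those of miR-17-5p in 4 (against 11.8%), those of miR-92a-3p in 4 (6.56%), those of miR-29b-3p in 4 (13.1%), those of miR-16-5p in 1 (20.3%) and those of miR-34a-5p in 2 (14.3%). As miR-17-5p, miR-92a-3p, miR-29b-3p and miR-34a-5p were chosen because they are known to target members, the comparison with all genes is no test for them. Longer 3′ UTRs also hold more matches by length alone, so the comparison is no test for miR-295-3p and miR-16-5p either. Of the 662 genes whose 3′ UTR was within 10% of the length of that of Bcl2l11, 39.7% held the miR-295-3p letters. The miR-92a-3p letters lay in 18.9% of them, and the miR-29b-3p letters in 37.5%. Near the length of Bcl2, 50.5% of 444 genes held the miR-295-3p letters, and near that of Bad, 4.81% held the miR-92a-3p letters.

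The sites shown next are those that pair with more than 1 of the miRNAs, and those of miR-92a-3p in Bcl2l11, miR-29b-3p in Mcl1 and miR-16-5p in Bcl2, pairs known from other work. Capitals mark the 7 paired letters, and the coordinates (GRCm38) are those of the capitals.
Bcl2l11, miR-295-3p, plus strand, chr2:128159777-128159783: cctggtggaggAGCACTTtctaacctgtg
Bcl2l11, miR-295-3p, plus strand, chr2:128160451-128160457: tccccgactggAGCACTTtactgtctcag
Bcl2l11, miR-92a-3p, plus strand, chr2:128161174-128161180: caaatgtctctGTGCAATtgtgttccctt
Bcl2l11, miR-92a-3p, plus strand, chr2:128162449-128162455: ccactgtacctGTGCAATactgctgtaaa
Mcl1, miR-295-3p, plus strand, chr3:95662642-95662648: tcggacttcagAGCACTTtatgtagttga
Mcl1, miR-29b-3p, plus strand, chr3:95661859-95661865: agtcttaaccaTGGTGCTattcactgggt
Bcl2, miR-295-3p, minus strand, chr1:106540042-106540048: acagttaagggAGCACTTtcatgtagttc
Bcl2, miR-16-5p, minus strand, chr1:106540799-106540805: aagaaaccctgTGCTGCTatcctgccaag
In each of the 4 miR-295-3p sites shown, the base after the capitals is a T, which completes the letters of miR-17-5p. A match is a description of the sequence. Whether any of these sites was in use was not tested, since the analysis held no WT libraries.

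**Figure D1:**
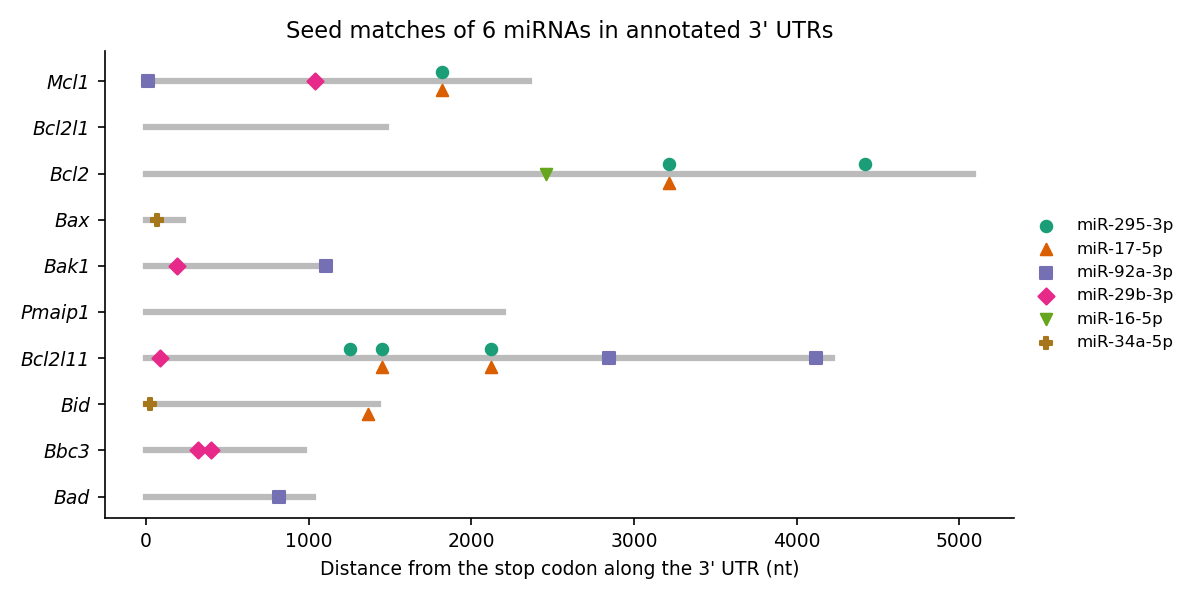
Seed matches of 6 miRNAs along the 3′ UTR of the 10 genes, as distance from the stop codon in nt. Grey bars give the annotated 3′ UTR, and each symbol is 1 match. Bcl2l11 carries 8 of the 24 matches, and Bcl2l1 and Pmaip1 carry none.

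The libraries held 41710122 and 41566184 counts on genes. Counts of replicate 2 were multiplied by 1.09 to bring them to the scale of replicate 1, and all 10 genes passed the minimum mean of 10 counts, as did 17788 genes in total. Dicer1, the targeted gene, had 1343 counts in replicate 1 and 1510 in replicate 2, which include reads from its exons outside the deletions and without WT cells check nothing. The 8 markers of the labelled cell type, Pou5f1, Nanog and Sox2 among them, were all detected and lay between 61.4 and 22614 TPM. TPM is the count divided by the length of the gene's exons and scaled to the same total in each library, so that levels of different genes can be compared. The 6 fibroblast markers summed to 23.1 and 16.6 TPM, with Thy1 the highest, Postn at 0 counts in both libraries, and Col3a1 at 1 and 0. The 4 trophectoderm markers summed to 7.57 TPM in replicate 1 and 3.08 in replicate 2, the 6 of primitive endoderm to 12.1 and 7.06, the 4 of mesoderm to 6.45 and 3.75, and the 4 of neuroectoderm to 42.7 and 88.7. Eomes, which is in both the trophectoderm and the mesoderm list, gave 5.63 and 2.66 TPM of each sum, and Tubb3 gave 21.0 and 64.7 TPM of the neuroectoderm sum. None of these markers was at 0 in either library, apart from the 2 fibroblast genes. In RNA of whole cultures, fewer cells of a type and less RNA per cell cannot be told apart.

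Mcl1 was by far the most abundant of the 10 genes. It encodes a short-lived protein that restrains BAK1 and BIM, and lies on chromosome 3 from 95658788 to 95663176 on the plus strand (GRCm38, ENSMUSG00000038612). It had 38369 counts in replicate 1 and 27078 in replicate 2, or 786 and 579 TPM, with a mean of 683 ± 146 TPM (SD, n = 2). This level was above that of 99.0% of the genes tested. Mcl1 exceeded Bcl2l1, which encodes BCL-XL, by 24.4-fold in replicate 1 and by 18-fold in replicate 2. This ratio depends on the gene models, since with the longest transcript as the length the mean levels were 555 TPM for Mcl1 and 46.8 TPM for Bcl2l1.

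Bcl2l1 was even between the libraries, at 2113 and 2020 counts, or 32.3 and 32.2 TPM (mean 32.2 ± 0.0443, SD, n = 2). It lies on chromosome 2 from 152780668 to 152831728 on the minus strand (ENSMUSG00000007659). Bcl2, the founding gene of the family, had few reads, with 24 counts in replicate 1 and 25 in replicate 2, or 0.184 and 0.200 TPM. Only 1.5% of the genes tested had a lower level. At this depth, 3 counts correspond to 0.0719 and 0.0722 CPM, the count scaled to the library total alone, and Bcl2 stood at 0.575 and 0.601 CPM. The gene spans 106538178 to 106714274 on the minus strand of chromosome 1 (ENSMUSG00000057329). Of the summed TPM of the 3 pro-survival genes, Mcl1 took 96.0% in replicate 1 and 94.7% in replicate 2, Bcl2l1 took 3.94% and 5.27%, and Bcl2 took 0.0224% and 0.0326%.

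Both effectors were well expressed. Bax, on the minus strand of chromosome 7 from 45461697 to 45466898 (ENSMUSG00000003873), had 5592 counts in replicate 1 and 6691 in replicate 2, or 249 and 310 TPM (mean 279 ± 43.8, SD, n = 2). Bak1, on the minus strand of chromosome 17 from 27019810 to 27029009 (ENSMUSG00000057789), had 4591 and 2635 counts, or 134 and 80.0 TPM (mean 107 ± 37.9, SD, n = 2). Bax was the higher of the pair in both libraries, and since they moved in opposite directions, the ratio of Bax over Bak1 was 1.86 in replicate 1 and 3.88 in replicate 2. Their summed level hardly differed, at 382 TPM in replicate 1 and 390 TPM in replicate 2.

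The BH3-only genes lay an order of magnitude or more below Mcl1. Pmaip1, which encodes NOXA, a protein that binds MCL1, was the highest, at 1861 and 1777 counts, or 47.7 and 47.6 TPM (mean 47.6 ± 0.105, SD, n = 2). Bcl2l11, whose product BIM binds all pro-survival proteins, had 4622 and 3072 counts, or 40.3 and 28.0 TPM (mean 34.1 ± 8.73, SD, n = 2). Bid, whose product is cut by caspase-8 and links death receptors to mitochondria, had 1364 and 1388 counts, or 26.9 and 28.6 TPM (mean 27.7 ± 1.19, SD, n = 2). Pmaip1 and Bid were close to even between the libraries, while Bcl2l11 was higher in replicate 1.

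Bbc3, which encodes PUMA, a mediator of death by p53, had 807 counts in replicate 1 and 599 in replicate 2, or 26.6 and 20.6 TPM (mean 23.6 ± 4.24, SD, n = 2). Bad, whose product is kept inactive by growth factor signalling through phosphorylation, had 451 and 312 counts, or 12.3 and 8.92 TPM (mean 10.6 ± 2.43, SD, n = 2). Both were higher in replicate 1. The BH3-only transcripts were spread over the 5 genes more evenly than the pro-survival ones, with shares of their summed TPM of 31.0% and 35.6% for Pmaip1, 26.2% and 20.9% for Bcl2l11, 17.5% and 21.4% for Bid, 17.3% and 15.4% for Bbc3, and 8.02% and 6.67% for Bad in replicates 1 and 2.

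Bcl2l11 spans 128126038 to 128162547 on the plus strand of chromosome 2 (ENSMUSG00000027381), Bid 120891930 to 120916853 on the minus strand of chromosome 6 (ENSMUSG00000004446), Bbc3 16308393 to 16318205 on the plus strand of chromosome 7 (ENSMUSG00000002083), Pmaip1 66458533 to 66465565 on the plus strand of chromosome 18 (ENSMUSG00000024521) and Bad 6941861 to 6951899 on the plus strand of chromosome 19 (ENSMUSG00000024959). Reads on overlapping genes were left out of the counts, which can lower some levels. Exon bases shared with a gene on the other strand made up 25.5% of Bak1, 20.5% of Bad, 17.7% of Bid and 6.09% of Bcl2, and Bax shared 12.2% with Gm45808 on its own strand. The other 5 genes shared none.

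**Figure D2:**
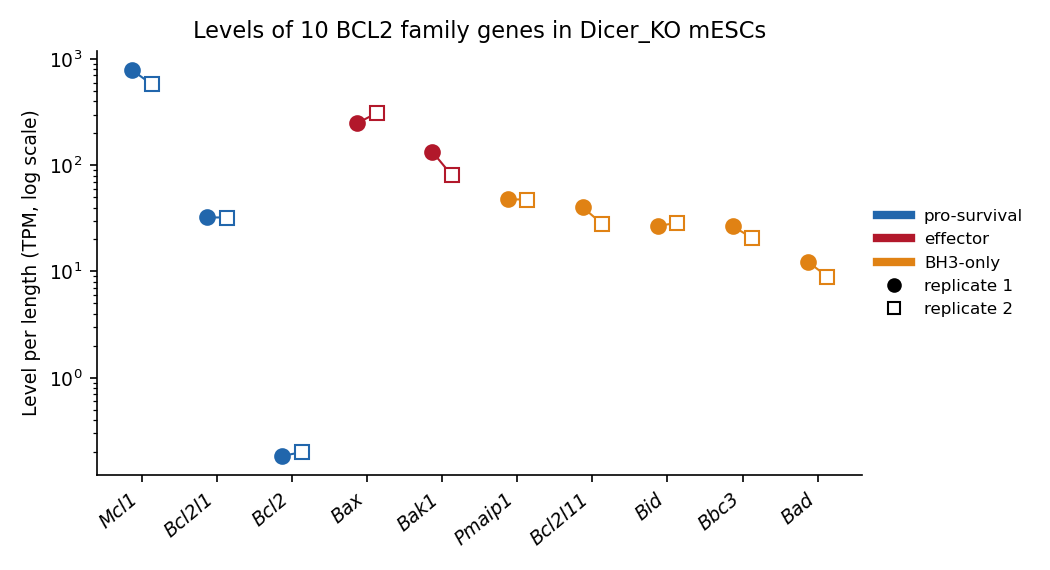
Level per length (TPM, log axis) of each gene in replicate 1 (filled circles) and replicate 2 (open squares), coloured by role. Mcl1 stands at 786 and 579 TPM and Bcl2 at 0.184 and 0.200 TPM, with the BH3-only genes between 8.92 and 47.7 TPM.

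Ordered by mean TPM, the genes ran Mcl1, Bax, Bak1, Pmaip1, Bcl2l11, Bcl2l1, Bid, Bbc3, Bad and Bcl2. The ranks of the first 4 and of the last 3 were the same in both libraries. Bcl2l11 was the fifth gene in replicate 1 and rank 7 in replicate 2, and its values, 40.3 and 28.0 TPM, overlapped those of Bcl2l1, 32.3 and 32.2 TPM, and of Bid, 26.9 and 28.6 TPM. The values of the other neighbours in this order did not overlap between the libraries, though the gap from Bid to Bbc3, 26.9 against 26.6 TPM in replicate 1, was small. The widest step was that from Bad to Bcl2, by 55.5-fold, and Mcl1 was 2.44-fold above Bax, Bax 2.62-fold above Bak1 and Bak1 2.24-fold above Pmaip1. With the longest transcript as the length in place of all exons, Bcl2l1 (46.8 TPM) and Bcl2l11 (44.2 TPM) came before Pmaip1 (38.8 TPM), so the middle of the order depends on the gene models.

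By role, the pro-survival genes made up 60.4% of the summed TPM of the 10 genes in replicate 1 and 53.9% in replicate 2 (mean 57.1% ± 4.65, SD, n = 2). The effectors made up 28.2% and 34.4%, and the BH3-only genes 11.4% and 11.8%. Within the 10 genes, pro-survival transcripts exceeded BH3-only transcripts by 5.32-fold in replicate 1 and by 4.58-fold in replicate 2, and effector transcripts by 2.14-fold and 1.57-fold. The rest of the family, described below, is not in these sums. Mcl1 accounts for nearly the whole pro-survival sum, so these ratios follow that gene. They are ratios of mRNA, and protein was not analysed here.

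**Figure D3:**
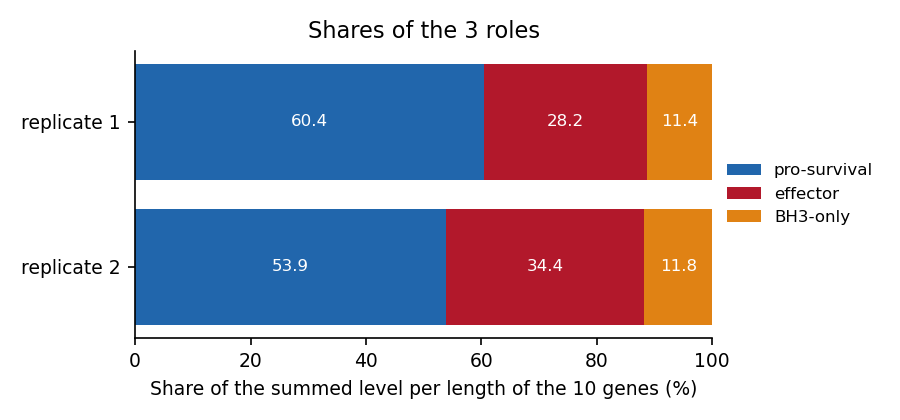
Share of each role in the summed level per length (TPM) of the 10 genes, in percent, for each Dicer_KO library. The pro-survival share is 60.4% in replicate 1 and 53.9% in replicate 2, and the BH3-only share is 11.4% and 11.8%.

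The libraries were then set against each other, as the log2 ratio of normalized counts in replicate 1 over replicate 2, with 95% intervals from the exact binomial (Clopper-Pearson) method that cover counting error only. None of the 10 genes lay beyond 2-fold, where 21.4% of the 17788 genes tested did. The widest difference was that of Bak1, higher in replicate 1 with a log2 ratio of 0.68 (interval 0.61 to 0.75), from 4591 against 2868 normalized counts. It was the single member beyond 1.5-fold, a limit that 23.5% of all genes passed with the higher value in replicate 1 and 16.1% with the higher value in replicate 2. A larger log2 ratio in either direction was found for 34.2% of the genes tested, so the difference of Bak1 is of a common size between these libraries.

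Bcl2l11 followed, with a log2 ratio of 0.47 (0.40 to 0.53), from 4622 against 3344 normalized counts. Bad had a log2 ratio of 0.41 (0.20 to 0.62), Mcl1 one of 0.38 (0.36 to 0.40) and Bbc3 one of 0.31 (0.15 to 0.46), all higher in replicate 1. Higher in replicate 2 were Bax, at -0.38 (-0.43 to -0.33), from 5592 against 7283 normalized counts, and Bid, at -0.15 (-0.26 to -0.04). Each of these 7 genes differed by more than counting error, but with total or raw counts as the scale the number was 6, since Bid, at -0.03 in both, no longer did.

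For the 3 remaining genes, the interval held equal levels. The log2 ratio was -0.06 for Bcl2l1 (-0.15 to 0.03) and -0.06 for Pmaip1 (-0.15 to 0.04). Both were nearly even between the libraries. That of Bcl2, at -0.17, reached from -1.05 to 0.69, so that at 24 and 25 counts a 2-fold lower level in replicate 1 lay within counting error.

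The 7 genes beyond counting error comprised 5 higher in replicate 1 and 2 higher in replicate 2. Over all genes tested, 37.8% were higher in replicate 1 by this rule and 35.4% were higher in replicate 2, so at this depth most genes of the libraries differ by more than counting error. The median log2 ratio of the 10 genes was 0.13, beside 0.02 over all genes tested, whose quartiles were -0.38 and 0.54. With total counts as the scale, the median of all genes moved by 0.12 to 0.14 and that of the members to 0.24, and the log2 ratios of Bcl2l1 and Pmaip1 turned to 0.06 and 0.06. The signs of the other 8 were kept under each of the scalings tried.

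**Figure D4:**
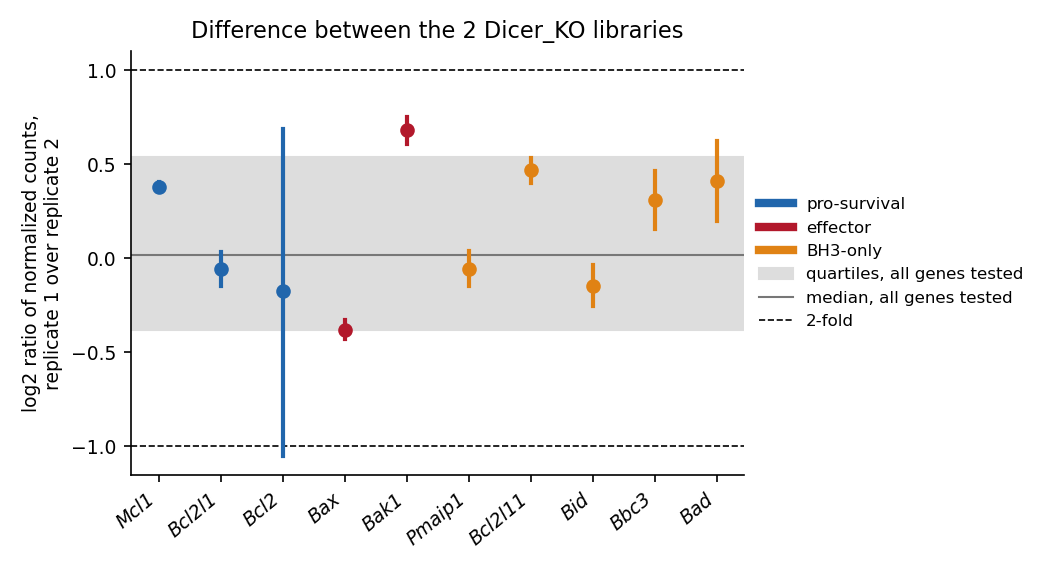
Log2 ratio of normalized counts, replicate 1 over replicate 2, for the 10 genes (points) with 95% counting intervals (lines), coloured by role. The grey band gives the quartiles of all 17788 genes tested (-0.38 to 0.54), and dashed lines mark 2-fold. Bak1, at 0.68, lies above the band, Bax, at -0.38, lies at its lower edge, and no point passes the dashed lines.

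The effectors showed the widest split within a role, with Bak1 at 0.68 and Bax at -0.38. Among the BH3-only genes, Bcl2l11, Bad and Bbc3 were higher in replicate 1, Bid was higher in replicate 2, and the interval of Pmaip1 held equal levels. Pmaip1, Bbc3 and Bax are known targets of p53, and they did not move as one, with log2 ratios of -0.06, 0.31 and -0.38. Trp53 itself, the gene of p53, had 14679 and 15693 counts and a log2 ratio of -0.22 (-0.25 to -0.19). Whether the activity of p53 differed between the libraries was not tested. Set beside the miRNA matches, Bcl2l11, with 8, had a log2 ratio of 0.47, and Mcl1 and Bcl2, with 4 each, had 0.38 and -0.17. Bak1, Bbc3 and Bid, with 2 each, had 0.68, 0.31 and -0.15, and Bad and Bax, with 1 each, had 0.41 and -0.38. Bcl2l1 and Pmaip1, with none, had -0.06 each. Since both libraries lack DICER, this says nothing about the miRNAs.

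The rest of the family, a list of 13 genes, was lower and less even. Of these, 10 passed the minimum mean count, and 4 of the 10 lay beyond 2-fold between the libraries (21.4% of all genes). Bik, a BH3-only gene, had 397 counts in replicate 1 and 131 in replicate 2, with a log2 ratio of 1.47 (1.19 to 1.77). Bmf, another BH3-only gene, whose product is held at the cytoskeleton, had 2398 and 817 counts, with a log2 ratio of 1.43 (1.32 to 1.55). Bok, related to the effectors, had 80 and 195 counts, with a log2 ratio of -1.40 (-1.80 to -1.03), and Bcl2l15 had 169 and 528, with one of -1.76 (-2.02 to -1.51). Bik and Bmf were thus higher in replicate 1, and Bok and Bcl2l15 higher in replicate 2.

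Bik lies on chromosome 15, whose 683 tested genes had a median log2 ratio of 0.59, where the median over all genes was 0.02. Its ratio was above that median too, and the part of the chromosome in it was not tested. The exons of Bcl2l15 share 21.0% of their bases with Gm43064 on the same strand. The other 6 genes that passed the minimum lay between -0.54 and 0.98. Bmf had the highest mean level of the list and the highest in replicate 1, though not in replicate 2, at 32.0 TPM in replicate 1 and 11.4 TPM in replicate 2. In replicate 1 it was thus close to Bcl2l1 (32.3 TPM), and in replicate 2 between Bbc3 (20.6 TPM) and Bad (8.92 TPM).

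Few or no reads fell on the Bcl2a1 genes, which encode a pro-survival protein best known from blood cells. Bcl2a1a and Bcl2a1b had 0 counts in both libraries, and Bcl2a1d had 1 count in replicate 1 and 0 in replicate 2. These genes are near-identical copies, and how reads with several alignments were counted is not given in the sources used here, so their counts are uncertain. Bcl2a1b also shares 49.1% of its exon bases with Gm29094 on the same strand, and reads on overlapping genes were left out.

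Around the family, all 16 genes of the death machinery described here passed the minimum count. Most act at or after the mitochondria, while Casp8, Fadd and Cflar belong to the death receptor pathway, upstream of Bid. The median log2 ratio of the 16 genes was 0.02, as over all genes, and 2 of the 16 (against 21.4% of all genes) lay beyond 2-fold, each higher in replicate 1. Cflar, whose product restrains caspase-8, had 648 and 216 counts, with a log2 ratio of 1.46 (1.24 to 1.69). Casp8, the caspase that cuts BID, had 514 and 221 counts, with a log2 ratio of 1.09 (0.87 to 1.33). Cflar and Casp8, the inhibitor and its target, were thus both higher in replicate 1. They are near each other on chromosome 1, where Cflar ends at 58758884 and Casp8 starts at 58795374. Fadd, of the same pathway, had a log2 ratio of 0.11 (-0.09 to 0.32), so its interval held equal levels.

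The other 14 genes of this list lay between -0.42 and 0.96 on the log2 scale. Vdac1, a channel of the outer mitochondrial membrane, had the highest level of the list, at 818 and 817 TPM, close to that of Mcl1 in replicate 1. Cflar had the lowest mean, at 3.58 and 1.25 TPM, and was the lowest in replicate 2 alone.

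**Figure D5:**
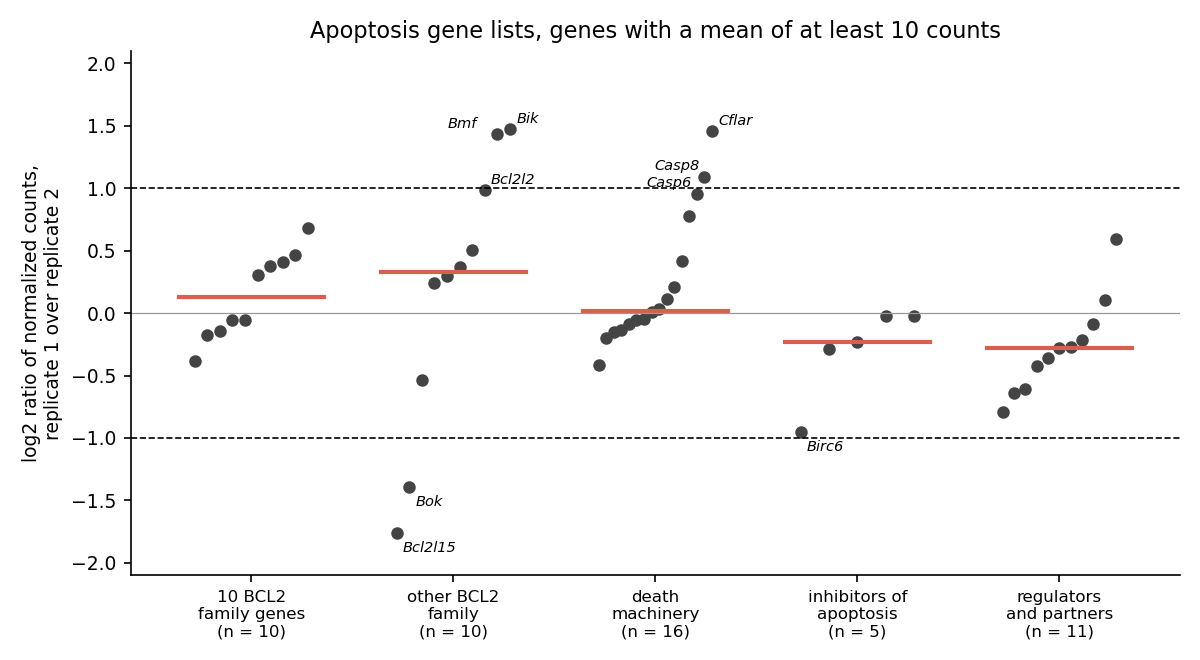
Log2 ratio of normalized counts, replicate 1 over replicate 2, for the genes of 5 lists with a mean of at least 10 counts. Points are genes, red lines are list medians (0.13 for the 10 BCL2 family genes, 0.33 for the other family genes, 0.02 for the death machinery, -0.24 for the inhibitors of apoptosis and -0.28 for regulators and partners), and dashed lines mark 2-fold. Genes beyond 2-fold appear among the other family genes and the death machinery.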

How the data were processed

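PolyA RNA of 2 Dicer_KO libraries was analysed as 1 group. The authors deposited raw counts per Ensembl gene. Reads had been trimmed with Trimmomatic, aligned to mm10 (GRCm38) with STAR (2.4.2a), and counted with featureCounts (1.4.5-p1), leaving out overlapping regions. The libraries are labelled reverse-stranded, and the strand setting of the counting is not given in the sources used here.

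Replicate 2 was scaled to replicate 1 with TMM factors of edgeR (4.0.16, R 4.3.3). Log2 ratios used a pseudocount of 1, for genes whose mean count was 10 or more. Intervals are Clopper-Pearson at 95% (scipy 1.17.1), and cover counting error only. No p-value was computed, since there is 1 group. TPM used the union of exons in GENCODE M21, later than the annotation counted on, in which 1081 listed genes had no entry. They held 0.152% and 0.168% of the counts. Symbols were found for 42462 of 43629 genes. The ratio and its interval were tested on simulated data.

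The members and lists were chosen with earlier results of these data known. All members are named. Genes of the other apoptosis lists are named at 0 counts, beyond 2-fold, or at the highest or lowest mean TPM of their list. Trp53, Fadd, Birc2, Birc6, Xiap, Huwe1, Usp9x, Ywhaz and Dynll1 were added after their values were seen, as were the markers named. Alternatives were DESeq2 (1.42.0) size factors, total and raw counts, other pseudocounts, filters, thresholds and lengths, and leaving out a replicate. Protein sequences were not used here. Some listed genes are not reported here and were left out of their list.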

Additional observations from a re-analysis of the deposited data

How the results depend on the processing

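No paired analysis was possible because the study design here has 1 group of libraries. The median log2 ratio of the 10 genes, 0.13, was 0.24 with total counts and 0.25 with raw counts, which shift the median of all genes by 0.12 each. The pro-survival share, 57.1%, was 51.5% with the longest transcript as length, and lay between 53.9% and 60.4% with each replicate left out in turn, which with 2 libraries moves it by less than their SD whatever the data. Members beyond 2-fold numbered 0, and 1 (Bak1) beyond 1.5-fold. Genes beyond 2-fold numbered 3803 (21.4%). The number was 7938 of 43629 (18.2%) with no filter, 2324 of 14314 (16.2%) at a mean of at least 50 counts, and 7045 (39.6%) at 1.5-fold. The other 20 of 27 such values moved by less than 0.1 for the median, 1.5 times for counts or 1 SD for the share. Among them, the setting with exon bases shared between genes left out of the length was chosen after seeing the data. It gave a pro-survival share of 53.9%. Since TPM is rescaled over all genes, levels also fell for members that share no exon bases. The mean level of Mcl1 was then 334 TPM, against 683 TPM, and that of Pmaip1 23.2 TPM, against 47.6 TPM. Bcl2l1 (15.7 TPM) then came after Bid (16.4 TPM). Of the levels of single members under other lengths or with a replicate left out, 15 moved by at least 1 SD and 25 did not. All 15 were under other lengths. The 25 include every level with a replicate left out, which with 2 libraries cannot move by 1 SD, so most levels depend on the length used. Of 40 log2 ratios of single members, 14 left their counting interval, and 4 changed sign, those of Bcl2l1 and Pmaip1 with total and raw counts. Ratios cannot be computed with a library left out. Depth limits Bcl2, at 24 and 25 counts.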

Other observations

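Genes that hold caspases back, and partners that set how long the family's proteins last, were measured beside it. Of the 5 inhibitors of apoptosis, 3 were lower in replicate 1 by more than counting error and none was higher, beside 35.4% of all genes tested lower and 37.8% higher by this rule. Their median log2 ratio was -0.24, and none passed 2-fold, which 21.4% of all genes did. Birc5, which encodes survivin, had the highest level, at 73.1 and 82.5 TPM, and Birc3 the lowest, at 17.3 and 16.9 TPM. The lowest log2 ratio was that of Birc6, at -0.96 (-0.99 to -0.92), from 11164 against 21646 normalized counts, and Xiap, a direct inhibitor of caspases, had -0.29 (-0.33 to -0.24). For Birc2 and Birc3, the other two, the interval held equal levels.

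Of the 11 regulators and partners, 9 were higher in replicate 2 and 2 higher in replicate 1, each by more than counting error (35.4% and 37.8% of all genes), and none passed 2-fold (21.4% of all genes). Their median log2 ratio was -0.28. Dynll1, at -0.09 (-0.13 to -0.04), had 8226 raw counts in replicate 1 and 8041 in replicate 2, so its place among the 9 depends on the scaling. Ywhae, a 14-3-3 protein of the kind that binds phosphorylated BAD, had the highest level, at 1015 and 1174 TPM, and Trp73, a relative of p53, the lowest, at 4.81 and 6.20 TPM. Huwe1, a ubiquitin ligase for MCL1, had a log2 ratio of -0.64 (-0.66 to -0.62), and Usp9x, which removes ubiquitin from MCL1, had -0.79 (-0.82 to -0.77). Both were among the 9 genes of this list higher in replicate 2, and MCL1 protein was not analysed here. Ywhaz, on chromosome 15, whose genes had a median of 0.59, had 0.59 (0.56 to 0.63).

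Birc6, Huwe1 and Usp9x have long transcripts. The 368 tested genes with an annotated transcript of at least 10000 nt had a median log2 ratio of -0.21 (quartiles -0.62 and 0.18), where the 8856 genes from 2000 to below 5000 nt had 0.06. Xiap, Huwe1 and Usp9x are on chromosome X, whose 717 tested genes had a median of -0.12. The part of transcript length or chromosome in these ratios was not tested.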
